A study of Mus musculus with 108 samples.

Results

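The genes described here are 36 regulators of pre-mRNA splicing: 8 classical SR proteins, 5 SR-related proteins, 22 heterogeneous nuclear ribonucleoproteins (hnRNPs, with Rbmx and Ptbp1) and Sf3b1. They were chosen by gene symbol, with earlier results of these data known, and each symbol matched 1 Ensembl mouse gene ID among the 55573 IDs counted in every library. The libraries came from single mouse oocytes, 64 made from polyadenylated RNA captured on oligo(dT) beads (polyA) and 22 made with random hexamers after removal of ribosomal RNA (RiboMinus). Each oocyte carried either an oocyte-specific knockout of Exosc10, called cKO by the labels, or was a control, and the stages were GV (before meiotic resumption, with an intact nucleus), GV3h (after 3 hours of culture, polyA only) and MII (mature eggs taken from the oviduct). The labels used here do not give the allele, the Cre driver, the strain or the age of the females, nor the genotype of the controls beyond that word. For polyA, GV was represented by 15 cKO oocytes against 7 controls, GV3h by 11 against 8 and MII by 15 against 8. For RiboMinus, GV had 7 cKO oocytes against 8 controls and MII 4 against 3. Females numbered 16 (polyA) and 7 (RiboMinus), each giving oocytes of 1 genotype and 1 stage. All 3 RiboMinus MII control oocytes came from female V1145, and there the genotype cannot be told apart from the female.

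Exosc10 encodes a nuclear 3′ to 5′ exonuclease that works with the RNA exosome, the complex that trims and degrades RNA. SR proteins bind exons through RNA recognition motifs and recruit the splicing machinery through domains rich in arginine and serine, whereas hnRNPs coat nascent RNA and often block or redirect splice sites. Many genes of both families limit their own product: the protein promotes an isoform with a poison exon or a retained intron, and that RNA is degraded in the cytoplasm or held and degraded in the nucleus. In the GENCODE M21 annotation of GRCm38, 24 of the 36 genes (66.7%) had a transcript annotated as a target of nonsense-mediated decay, against 20.9% of 21903 protein-coding genes. A retained-intron transcript was annotated for 26 of them (72.2%), against 41.6%. The deposited values count reads per gene, so a rise cannot be assigned to a productive or an unproductive isoform.

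Library totals ran from 4638718 to 8735914 counts for polyA and from 12319658 to 62675760 for RiboMinus oocytes. Levels are given as CPM, the counts scaled by library total and TMM factor (trimmed mean of M values) within a library type, so a change is measured against the remaining genes of that oocyte's library. Exosc10 itself lay between 0 and 8.15 CPM in the 52 cKO oocytes and between 42.6 and 164 CPM in the 34 controls, with no overlap. All 8 oocyte markers tested (such as zona pellucida genes) were above 1 CPM in each of the 10 groups, with summed levels of 6562 to 27231 CPM per oocyte. The 12 granulosa and cumulus markers summed to 14.3 to 126 CPM per oocyte, with overlapping ranges in cKO and control oocytes of each stage and library type. From 7 to 11 of the 12 had a count in each group, and 1 to 6 had a group mean of at least 1 CPM. In polyA controls these markers summed to 36.5 to 64 CPM at GV and 66.1 to 126 CPM at MII. In polyA cKO oocytes the sums were 14.8 to 57 CPM at GV and 59.4 to 116 CPM at MII, so neither genotype overlapped between these stages. The part of these markers in the genotype and stage results was not tested.

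At GV in polyA libraries, 14 of the 35 genes tested were higher and 4 lower in cKO than in control oocytes, at a Benjamini-Hochberg adjusted p under 0.05 in edgeR's quasi-likelihood test, which is the meaning of "called" throughout. Over all 14606 genes tested, 23.7% were called higher and 17% lower. The median log2 fold change was 0.35 over the 35 splicing regulators and 0.09 over all genes. At GV3h, 20 of 35 were higher and 4 lower, against 31.1% and 24.4% of all genes. At MII, 15 of 35 were higher and 6 lower, against 21.2% and 16.2% of all genes. In RiboMinus libraries, 10 of 35 were higher and 3 lower at GV, against 21.1% and 16.1% of all genes. At MII in the RiboMinus libraries, 12 of 36 were higher and 1 lower, against 13.6% and 9.9%. The medians over the regulators were 0.32, 0.26, 0.18 and 0.53 in these 4 comparisons, beside 0.07, 0.09, 0.00 and 0.12 over all genes. With library totals in place of TMM factors, the median over all genes at polyA GV was 0.21 and the split of the regulators 19 higher and 4 lower, and no called regulator changed sign in a genotype comparison. The shares of all genes called with library totals are not given here, so that split has no background.

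These tests treat oocytes as replicates, and oocytes of 1 female are not independent. With counts summed per female, edgeR called 18 of the regulators at GV3h (15 higher, 3 lower) and 11 at polyA MII (8 higher, 3 lower), but 0 at polyA GV and 0 at RiboMinus GV, where each genotype had 2 females. Of all genes tested, the same sums called 39.7%, 18.3%, 0.00555% and 0.0149% in these 4 comparisons. At an unadjusted p under 0.05, the female sums gave 10 of 35 regulators and 19.1% of all genes at polyA GV, and 12 of 36 and 24.2% at RiboMinus GV. With limma voom and the female as a random effect, the numbers called were 7, 21, 19, 8 and 8 in the order GV, GV3h and MII for polyA, then GV and MII for RiboMinus, and 8.65%, 47%, 33%, 17.6% and 17.3% of all genes.

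**Figure D1:**
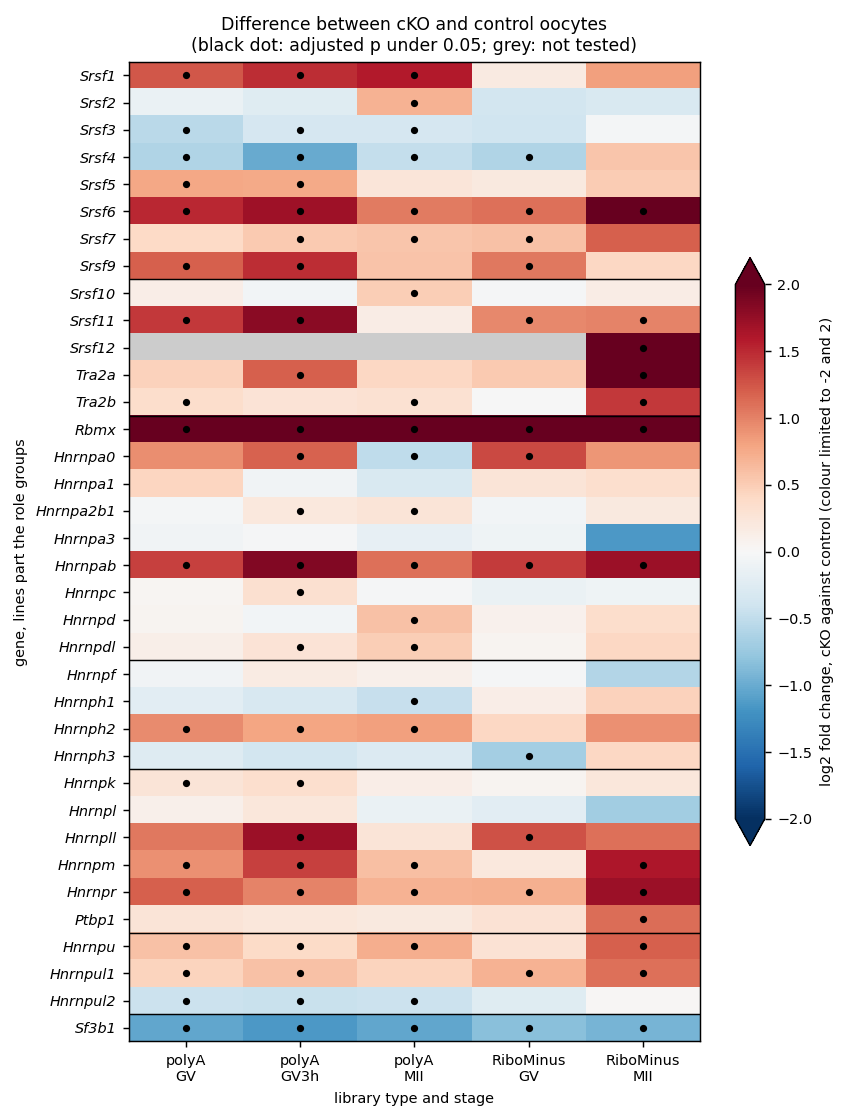
Rows are the 36 genes, parted by lines into role groups, and columns are the 5 comparisons of cKO with control. Colour is the log2 fold change (limited to 2 either way) and a black dot marks an adjusted p under 0.05; Rbmx, Hnrnpab, Srsf6 and Hnrnpr are red with a dot in all 5 columns, and Sf3b1 is blue with a dot in all 5.

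Of the 35 regulators tested in all 5 comparisons, 4 were called higher every time (Rbmx, Hnrnpab, Srsf6 and Hnrnpr) and 1 was called lower every time (Sf3b1). Rbmx passed the filter on low counts through the cKO oocytes in each of the 5, as did Srsf1 at GV3h and polyA MII and Srsf12 at RiboMinus MII, so these calls add no support to the counts of higher genes. Among the 11833 genes tested in all 5, 2.48% were called higher each time and 2.69% lower each time. The 5 comparisons share no oocyte and no female. Another 4 regulators (Hnrnpa1, Hnrnpa3, Hnrnpf and Hnrnpl) were called in none of the 5, as were 18.2% of the genes. Hnrnpa0 alone among the regulators was called in opposite directions, which 8.46% of the genes were. Some of these calls rest on 1 female or oocyte. At RiboMinus GV, without female V1131, Hnrnpab (0.88), Hnrnpr (0.45), Srsf6 (0.46), Sf3b1 (−0.28) and Hnrnpa0 (0.81) were not called, and without either control female, V1132 or V1133, neither Sf3b1 (−0.84 and −0.85) nor Srsf6 (1.07 and 1.14) was. Sf3b1 was not called at RiboMinus MII without control oocyte V1145_4 (−0.72), nor Srsf6 at polyA MII without female V853 (0.75).

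The promoter sequences of 3 of the genes that were higher in all 5 comparisons and of Sf3b1 are shown to set genes that moved in opposite directions side by side. They are the 250 bases before the transcription start in RefSeq's GRCm38.p6 promoters, written 5′ to 3′ on the gene's strand: Rbmx at chrX:57393037-57393286 (minus strand), Hnrnpab at chr11:51606882-51607131 (minus), Srsf6 at chr2:162931258-162931507 (plus) and Sf3b1 at chr1:55027479-55027728 (minus). Capitals mark matches, on either strand, to CCAAT (the CCAAT box) or GGGCGG (the GC box).
Rbmx: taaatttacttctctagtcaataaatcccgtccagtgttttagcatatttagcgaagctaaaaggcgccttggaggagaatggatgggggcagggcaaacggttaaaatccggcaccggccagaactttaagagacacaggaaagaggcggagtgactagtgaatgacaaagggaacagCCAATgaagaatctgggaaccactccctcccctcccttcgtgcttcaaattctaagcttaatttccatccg
Hnrnpab: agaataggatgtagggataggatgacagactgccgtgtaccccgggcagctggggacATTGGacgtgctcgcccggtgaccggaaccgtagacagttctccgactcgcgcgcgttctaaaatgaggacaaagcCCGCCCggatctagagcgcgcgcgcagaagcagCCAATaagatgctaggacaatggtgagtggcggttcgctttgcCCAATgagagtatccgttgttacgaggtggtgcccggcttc
Srsf6: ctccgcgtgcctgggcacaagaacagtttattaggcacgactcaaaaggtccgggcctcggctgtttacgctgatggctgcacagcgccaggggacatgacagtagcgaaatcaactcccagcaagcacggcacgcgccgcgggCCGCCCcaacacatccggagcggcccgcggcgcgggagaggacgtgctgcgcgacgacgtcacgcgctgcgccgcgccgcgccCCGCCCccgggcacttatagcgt
Sf3b1: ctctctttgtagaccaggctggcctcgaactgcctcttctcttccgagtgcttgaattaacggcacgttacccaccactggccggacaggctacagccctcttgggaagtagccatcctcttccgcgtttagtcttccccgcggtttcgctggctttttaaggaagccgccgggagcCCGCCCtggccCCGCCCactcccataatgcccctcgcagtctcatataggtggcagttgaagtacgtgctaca

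Both motifs and 2 further ones, TATAAA (the TATA box) and CTCGCGAG (the centre of a palindrome found in many housekeeping promoters), were searched on both strands, and the marked matches do not overlap. Rbmx had 1 CCAAT match, Hnrnpab had 3 CCAAT matches and 1 GGGCGG match, and Srsf6 and Sf3b1 each had 2 GGGCGG matches. Promoters were found for 34 of the 36 genes, all but Hnrnpll and Hnrnpul2. Some of their starts lay away from the annotated gene start: by 1226 bases for Hnrnpk, 1402 for Hnrnpm and 2349 for Hnrnpl. For Srsf12, Srsf10, Hnrnph3 and Hnrnpdl the distance was 281 to 442 bases. GGGCGG was present in 26 of the 34 (76.5%), against 32.7% of all 32851 promoters of this length, and CCAAT in 18 (52.9%), against 33.8%. TATAAA was present in 3 (8.82%), against 12.4%, and CTCGCGAG in 1, that of Srsf4 (2.94%), against 0.761%. The 34 windows held a median of 22.5 CG pairs, beside 6 over all promoters. For each of the 34 genes only the listed promoter nearest the annotated start was used, whereas the comparison takes every listed promoter. That comparison includes genes not expressed in oocytes, and promoters of genes with similar expression were not compared separately.

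Rbmx encodes an X-linked hnRNP G protein that works with TRA2 proteins at exonic enhancers. At polyA GV it lay at 0, 0.324 and 3.04 CPM (lowest, median and highest) in control oocytes and at 3.19, 6.11 and 12.6 CPM in cKO oocytes. The groups did not overlap there, nor at GV3h, where the highest control was 0.994 CPM and the lowest cKO oocyte 2.55 CPM. At polyA MII they did: controls ran from 0 to 3.09 CPM and cKO oocytes from 0.395 to 16.7 CPM. In RiboMinus GV oocytes the level was 0.137 to 0.901 CPM in controls and 2.02 to 12.8 CPM in cKO oocytes. In RiboMinus MII controls it was 0.256, 0 and 0 CPM (4, 0 and 0 counts), and the cKO oocytes had 12.1, 13.5, 8.05 and 14.1 CPM (222 to 697 counts). Rbmx was thus close to undetected in controls of every stage and was counted in every cKO oocyte. The log2 fold changes were 2.89 ± 0.56 (SE) at polyA GV, 3.60 ± 0.42 at GV3h, 3.21 ± 0.77 at polyA MII and 3.37 ± 0.46 at RiboMinus GV. At RiboMinus MII the control counts were near 0, so the fitted fold is not given. In none of the 5 comparisons would the control oocytes alone have carried Rbmx past the filter on low counts, so it entered the tests through the cKO oocytes, and its values are a description with no p given.

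Hnrnpab encodes the CArG-box binding factor A, an hnRNP A/B protein. At polyA GV its control oocytes lay at 29.1, 33.6 and 38.7 CPM and its cKO oocytes at 46.6, 82.2 and 146 CPM, and at GV3h at 17, 28 and 33.7 CPM and 51.1, 108 and 138 CPM. No cKO oocyte overlapped a control at these 2 stages. At polyA MII the ranges of 33.6 to 62.6 CPM and 54.5 to 126 CPM overlapped at their ends. RiboMinus GV oocytes ran from 48.1 to 77.7 CPM in controls and from 73.2 to 243 CPM in cKO, and RiboMinus MII oocytes were at 41.9, 21.8 and 31.7 CPM in controls and 110, 120, 87.4 and 99.2 CPM in cKO. The log2 fold changes were 1.36 ± 0.20, 1.85 ± 0.18 and 1.09 ± 0.15 in polyA (GV, GV3h, MII) and 1.40 ± 0.22 and 1.71 ± 0.28 in RiboMinus (GV, MII), with edgeR adjusted p from 6.5e-08 to 0.0012. With counts summed per female, Hnrnpab was called at GV3h (adjusted p = 0.00075), but not at polyA MII (0.71, adjusted p = 0.066) nor at GV in either library type. Exons of Hnrnpab overlap those of Phykpl on the other strand, and no source used here says whether strand was used in counting, so some of its reads could belong to Phykpl. The same limit holds for Srsf1, Srsf2, Srsf4, Hnrnpd, Hnrnpf, Hnrnph3, Hnrnpk, Hnrnpl, Hnrnpr, Hnrnpu and Ptbp1, whose exons also overlap genes on the other strand.

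Srsf6, an SR protein (SRp55), was at 7.01, 11.8 and 15.2 CPM in polyA GV controls and at 20.2, 33.8 and 51.9 CPM in cKO oocytes. At GV3h the values were 6.6, 10.4 and 16.3 CPM against 24.1, 32.4 and 54.7 CPM, again with no overlap. At polyA MII the ranges overlapped (9.95 to 33.8 CPM in controls and 20.6 to 60.8 CPM in cKO). RiboMinus GV oocytes ran from 11.1 to 22.8 CPM in controls and from 9.58 to 66.9 CPM in cKO, whose lowest oocyte was below every control. RiboMinus MII oocytes had 19.2, 9.08 and 6.34 CPM in controls and 31.8, 53.1, 54.3 and 56.4 CPM in cKO. Its log2 fold changes were 1.5 ± 0.19, 1.70 ± 0.20, 1.04 ± 0.23, 1.11 ± 0.32 and 2.08 ± 0.41 in the same order of comparisons, with edgeR adjusted p from 7e-07 to 0.014. The RiboMinus GV call was lost with limma voom and the female as random effect (0.92, adjusted p = 0.15). With counts summed per female, Srsf6 was called at GV3h (adjusted p = 0.00085) and polyA MII (0.0495), and not at GV in either library type.

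Hnrnpr, a close relative of Syncrip, was at 11, 14.5 and 19.3 CPM in polyA GV controls and at 21, 30.7 and 57.2 CPM in cKO oocytes. At polyA MII the values were 18.7, 36.4 and 43.6 CPM and 44.1, 56.5 and 72 CPM. The groups did not overlap at either stage. The log2 fold changes were 1.19 ± 0.20, 0.99 ± 0.17, 0.69 ± 0.13, 0.71 ± 0.15 and 1.72 ± 0.33, with edgeR adjusted p from 4.4e-05 to 0.003. With counts summed per female, Hnrnpr was called at GV3h (adjusted p = 0.0035) and polyA MII (0.024), and not at GV in either library type.

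**Figure D2:**
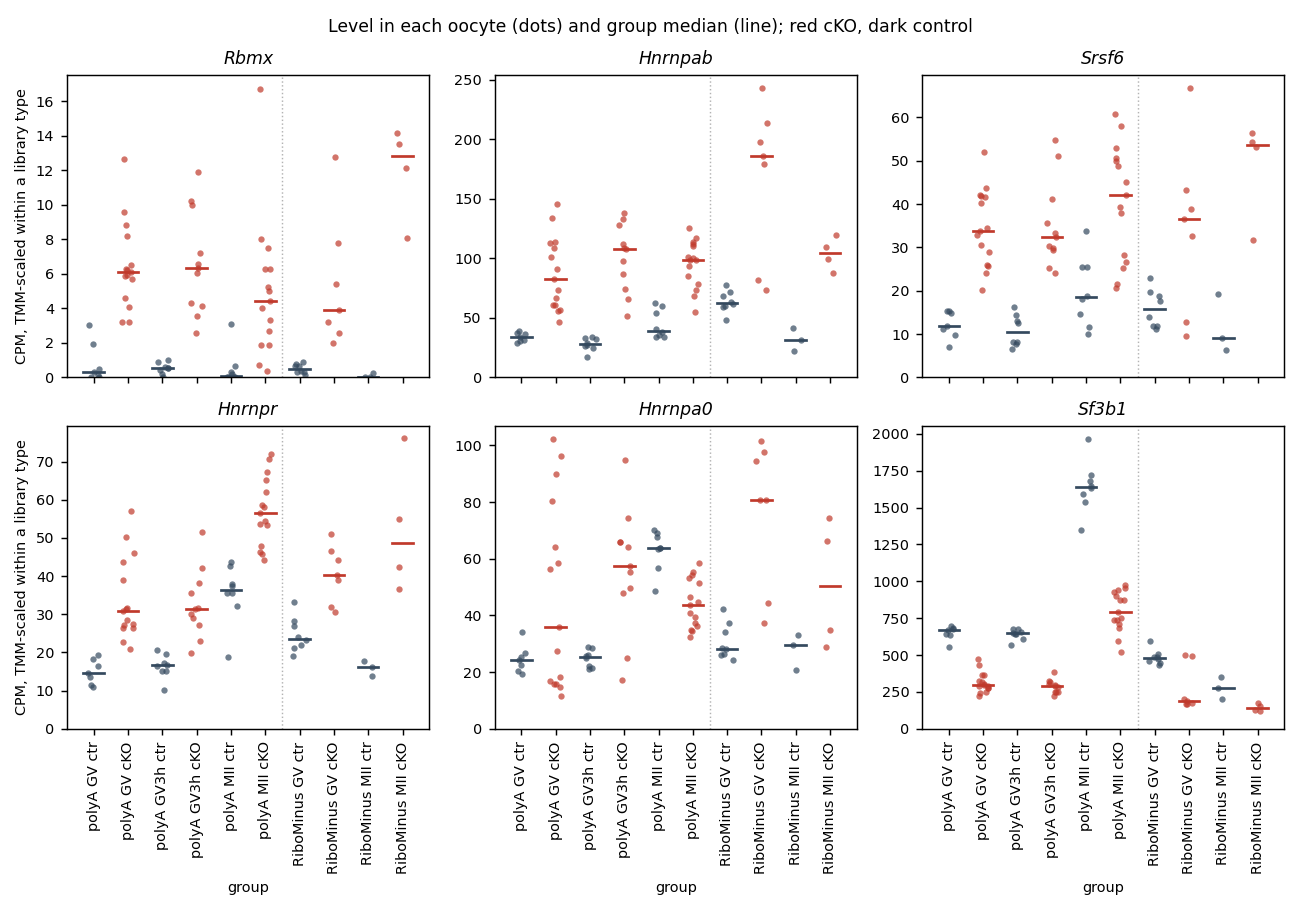
Each dot is 1 oocyte and each line a group median, in CPM on a linear axis from 0, for 6 genes in the 10 groups (red cKO, dark control; the dotted line parts polyA from RiboMinus). Rbmx stays under 3.1 CPM in every control group, and the cKO medians of Sf3b1 lie below the control medians in all 5 pairs, with 2 RiboMinus GV cKO oocytes at control level.

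Sf3b1 moved the other way. It encodes the largest subunit of the SF3b complex of the U2 snRNP, which holds the branch point, and it is a core component rather than a regulator of the SR or hnRNP type. In polyA GV controls it was at 553, 673 and 696 CPM and in cKO oocytes at 224, 296 and 476 CPM. At GV3h the values were 565, 646 and 677 CPM and 224, 291 and 387 CPM, and at MII 1348, 1640 and 1962 CPM and 520, 789 and 975 CPM. No cKO oocyte reached the lowest control at any of the 3 polyA stages. The log2 fold changes were −1.05 ± 0.11, −1.14 ± 0.09 and −1.04 ± 0.10, with edgeR adjusted p of 3.9e-07, 5.4e-09 and 3.9e-09. At RiboMinus GV the ranges of 432 to 595 CPM and 166 to 503 CPM overlapped (−0.84 ± 0.24, adjusted p = 0.014). At RiboMinus MII the controls had 273, 203 and 353 CPM and the cKO oocytes 123, 128, 156 and 173 CPM (log2 fold change −0.93 ± 0.23, adjusted p = 0.013). Counts summed per female gave adjusted p of 0.00023 at GV3h and 0.0016 at polyA MII, and 0.14 at polyA GV.

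Per kilobase of exon, Sf3b1 had the highest mean level of the 36 genes in polyA GV controls, at 57.3 ± 4.3 CPM per kb (SD, n = 7), followed by Hnrnpc at 30.8 ± 2.9. Hnrnpk (28.5 ± 3.2) was within 1 SD of Hnrnpc, and Ptbp1, Hnrnpa2b1, Srsf2 and Hnrnpul2 followed at 25 to 22.9 CPM per kb, each within 1 SD of its neighbour in that order. In RiboMinus GV controls the order differed: Ptbp1 led at 79.9 ± 12.1 CPM per kb (SD, n = 8), Hnrnpul2 followed at 63.8 ± 12.2 and Srsf2 at 51.8 ± 4.6, and Sf3b1 came after these 3 at 42.7 ± 4.4. In polyA GV cKO oocytes Hnrnpk led at 34.1 ± 3.3 (n = 15), followed by Hnrnpc, Hnrnpab at 31.4 ± 11.1, Ptbp1 and Sf3b1 at 27.8 ± 6.1, each within 1 SD of its neighbour. Sf3b1 alone took 31.1% of the summed CPM of the 36 genes in polyA GV controls and 15.7% in cKO oocytes, and 40.2% and 22.1% at MII. In RiboMinus libraries the shares of Sf3b1 were 16.1% and 8.66% at GV and 10.1% and 4.0% at MII. The sum of the other 35 was 1446 ± 99.7 CPM in polyA GV controls (SD, n = 7) and 1685 ± 129 CPM in cKO oocytes (n = 15).

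Among the other classical SR genes, directions were mixed. Srsf1, the founding SR protein (SF2/ASF), was low in polyA controls, at 1.74 to 3 CPM at GV, and lay at 3.99 to 8.48 CPM in cKO oocytes (log2 fold change 1.25 ± 0.19, edgeR adjusted p = 2.8e-05). Its log2 fold changes were 1.48 ± 0.21 at GV3h, where 7 of 8 controls reached the filter level (the CPM of 10 counts at the median library total), and 1.59 ± 0.45 at MII, where 1 of 8 did. Srsf1 passed the filter on low counts in both through the cKO oocytes, so these 2 values are a description. Its RiboMinus values of 3.35 to 7.99 CPM in controls and 2.74 to 9.81 CPM in cKO at GV overlapped almost fully (0.18 ± 0.27, adjusted p = 0.63). The difference between library types did not pass the test (interaction 0.99 ± 0.31, adjusted p = 0.11). Srsf9 rose at GV in both library types (1.19 ± 0.23 in polyA and 1.06 ± 0.23 in RiboMinus) and at GV3h (1.47 ± 0.19), and at polyA MII its log2 fold change was 0.57 ± 0.40 (adjusted p = 0.27). Srsf5 was called higher at polyA GV (0.77 ± 0.14) and GV3h (0.76 ± 0.15) only, and Srsf7, which also acts in RNA export, at GV3h, polyA MII and RiboMinus GV (0.52 to 0.59).

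Srsf4 (SRp75) was the SR gene that fell most often. It was at 28.4 to 46.7 CPM in polyA GV controls and 15.5 to 33.8 CPM in cKO oocytes, and at GV3h at 29.4 to 56.1 CPM and 11.3 to 27.9 CPM, with no overlap. Its log2 fold changes were −0.60 ± 0.15, −1.01 ± 0.17, −0.47 ± 0.11 and −0.60 ± 0.18 in polyA GV, GV3h and MII and RiboMinus GV, with edgeR adjusted p of 0.0032, 2.5e-05, 0.0014 and 0.018. At RiboMinus MII the value was 0.55 ± 0.31 and was not called (adjusted p = 0.23). Srsf3, the smallest SR protein, was called lower at the 3 polyA stages (−0.54 ± 0.17, −0.33 ± 0.11 and −0.34 ± 0.10). Srsf2 (SC35), whose exons overlap those of Mfsd11 and Mettl23 on the other strand, was called only at polyA MII, where it was higher (0.69 ± 0.25, adjusted p = 0.03).

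Among the SR-related genes, Srsf11 was at 10.5, 17.1 and 21.4 CPM in polyA GV controls and 18.5, 34.7 and 73.4 CPM in cKO oocytes (1.41 ± 0.29, edgeR adjusted p = 0.0005), and it was higher at GV3h (1.80 ± 0.23), RiboMinus GV (0.96 ± 0.27) and RiboMinus MII (0.99 ± 0.34). At polyA MII its value was 0.15 ± 0.18 (adjusted p = 0.53). Tra2a, which encodes a transformer-2 activator of exon inclusion, was called at GV3h (1.20 ± 0.29) and RiboMinus MII, where controls had 1.99, 8.62 and 10.2 CPM and cKO oocytes 21.2, 52.2, 37.6 and 20.1 CPM (2.24 ± 0.56, adjusted p = 0.013). Tra2b was called higher at polyA GV (0.35 ± 0.12), polyA MII (0.31 ± 0.12) and RiboMinus MII (1.41 ± 0.41). Srsf10 was called only at polyA MII (0.49 ± 0.08). Srsf12 passed the filter on low counts only at RiboMinus MII, where the 3 controls had 0 counts and the cKO oocytes 46, 2, 85 and 20 counts. Against a floor of 3 counts per control library, its mean of 1.19 CPM was at least 6.55-fold higher, and without oocyte V1167_1 at least 3.07-fold. It is 1 of the 12 counted as higher there, and since it passed the filter through the cKO group its call is no support for a difference.

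Several abundant hnRNP genes changed little. Hnrnpc, Hnrnpa2b1 and Hnrnpk were between 108 and 252 CPM in every polyA GV and GV3h oocyte, and their called log2 fold changes in the 5 comparisons ran from 0.21 to 0.34. Hnrnpa1, Hnrnpa3, Hnrnpf and Hnrnpl were called in none. Hnrnpa3 and Hnrnpa1 share near-identical sequence with 35 and 8 other annotated genes, whose counts came to 22.1% and 3.52% of their own, and Hnrnpk with 2 (3.53%), so the values of these 3 genes are uncertain. Hnrnpm, a regulator of alternative splicing, was higher at polyA GV (0.91 ± 0.19), GV3h (1.36 ± 0.22) and MII (0.60 ± 0.18) and RiboMinus MII (1.61 ± 0.45). Its exons, like those of Hnrnpul2, overlap another annotated gene on the same strand. Hnrnph2 was higher at the 3 polyA stages (0.94 ± 0.24, 0.80 ± 0.22 and 0.83 ± 0.18), while Hnrnph1 was lower at polyA MII (−0.46 ± 0.15) and Hnrnph3 lower at RiboMinus GV (−0.68 ± 0.21). Hnrnpll, a paralog of Hnrnpl, was at 2.32, 4.6 and 7.46 CPM in GV3h controls and 5.43, 13.8 and 26.9 CPM in cKO oocytes, and at 6.5 to 20.7 CPM and 7.56 to 46.3 CPM at RiboMinus GV. The ranges overlapped in both, and it was called higher in both (1.70 ± 0.30 and 1.28 ± 0.31, edgeR adjusted p of 6.3e-05 and 0.006).

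In the hnRNP U group, 2 genes were called higher and 1 lower at polyA GV. Hnrnpu, a scaffold attachment factor of chromatin, was called higher at the 3 polyA stages (0.59 ± 0.16, 0.39 ± 0.12 and 0.73 ± 0.11), and at MII its control oocytes (33.1 to 61.1 CPM) and cKO oocytes (63.8 to 106 CPM) did not overlap. Hnrnpul1 was called higher at polyA GV (0.45 ± 0.14), GV3h (0.59 ± 0.17), RiboMinus GV (0.70 ± 0.17) and RiboMinus MII (1.10 ± 0.30), and at polyA MII it was at 0.44 ± 0.28 (adjusted p = 0.22). Hnrnpul2 was called lower at the 3 polyA stages (−0.43 ± 0.11, −0.45 ± 0.11 and −0.44 ± 0.12). In RiboMinus MII oocytes Hnrnpu was at 151, 179 and 158 CPM in controls and 521, 408, 270 and 296 CPM in cKO (1.20 ± 0.25, edgeR adjusted p = 0.0054). Ptbp1, the polypyrimidine tract binding repressor, was called only there: controls had 354, 429 and 383 CPM and cKO oocytes 858, 1017, 816 and 686 CPM (1.12 ± 0.21, adjusted p = 0.0029). The interaction of library type with genotype was fitted at GV alone, where it called 0 of 35 regulators (1.21% of all genes in either direction), with 3 at an unadjusted p under 0.05 and 0 called by DESeq2. The 1.21% is the share at the adjusted threshold, and no share of all genes is given for the unadjusted p.

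Hnrnpa0, an intronless hnRNP gene, was the member called in both directions. In polyA GV controls it was at 19.4, 24.1 and 34.1 CPM and in cKO oocytes at 11.5, 35.9 and 102 CPM (0.93 ± 0.41, adjusted p = 0.074). At GV3h it was at 21 to 28.8 CPM and 17.2 to 94.9 CPM (1.18 ± 0.23, edgeR adjusted p = 0.00015), and in RiboMinus GV at 24.2 to 42.1 CPM and 37.2 to 102 CPM (1.32 ± 0.21, adjusted p = 0.00057). At polyA MII the order was the other way, with controls at 48.5, 63.7 and 70.1 CPM and cKO oocytes at 32.3, 43.5 and 58.6 CPM (−0.51 ± 0.12, adjusted p = 0.0012), and the ranges overlapped. That call, on which the opposite direction rests, was lost with counts summed per female (−0.60, adjusted p = 0.054) and with all polyA groups in 1 fit (−0.51). The interaction of stage and genotype was −1.44 ± 0.41 (edgeR adjusted p = 0.014), with an adjusted p of 0.23 when counts were summed per female. At RiboMinus MII Hnrnpa0 was at 0.88 ± 0.37 and was not called (adjusted p = 0.10).

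Females of the same group differed, and more so among cKO females at GV. Of the 36 genes, 14 differed by more than 1.5-fold between the means of the 2 polyA GV cKO females and 3 between the 2 control females. In RiboMinus GV the numbers were 11 and 1. Between the lowest and highest female means, the numbers were 7 in cKO and 4 in controls at GV3h, and 12 and 9 at polyA MII. In RiboMinus MII cKO oocytes the number was 13. The share of all genes that differed in this way was not computed, so these counts have no background. The mean of Hnrnpa0 was 86.6 CPM in cKO female V857 and 27.1 CPM in V888, beside 27.3 and 22.6 CPM in the control females V856 and V889. Srsf11 (63.8 and 33.9 CPM) and Hnrnpll (18.5 and 7.12 CPM) were also higher in V857 than in V888, whereas Rbmx was lower (4.58 and 7.4 CPM). In these 2 females Sf3b1 had means of 393 and 277 CPM.

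In RiboMinus GV, 2 oocytes of cKO female V1126 lay near the controls for several genes that changed elsewhere. Sf3b1 was at 503 and 491 CPM in V1126_2 and V1126_3, within the control range of 432 to 595 CPM, and at 204 CPM in V1126_4 and 166 to 189 CPM in the 4 oocytes of V1131. Hnrnpab (81.9 and 73.2 CPM) and Srsf6 (12.7 and 9.58 CPM) were at or near control level in the same 2 oocytes, and Rbmx (2.6 and 2.02 CPM) was above every control. V1126_2 also had the highest Exosc10 level of the RiboMinus GV cKO oocytes. The female means of Exosc10 in RiboMinus GV were 2.85 and 4.39 CPM in cKO and 128 and 136 CPM in controls. A link between Exosc10 level and these values was not tested. Without female V1126, 18 regulators were called at RiboMinus GV (12 higher, 6 lower), as were 26.4% and 26.2% of all genes, and the log2 fold change of Sf3b1 was −1.48 ± 0.11. Without V1131, only Rbmx of the 35 regulators and 0.631% of all genes were called (Rbmx 3.48 ± 0.57), and Sf3b1 was at −0.28 ± 0.21 (adjusted p = 0.53). In the full comparison Rbmx passed the filter on low counts through the cKO oocytes, so its value is a description. With a control female left out, 6 (without V1132) or 5 (without V1133) were called, beside 16.5% and 9.09% of all genes.

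**Figure D3:**
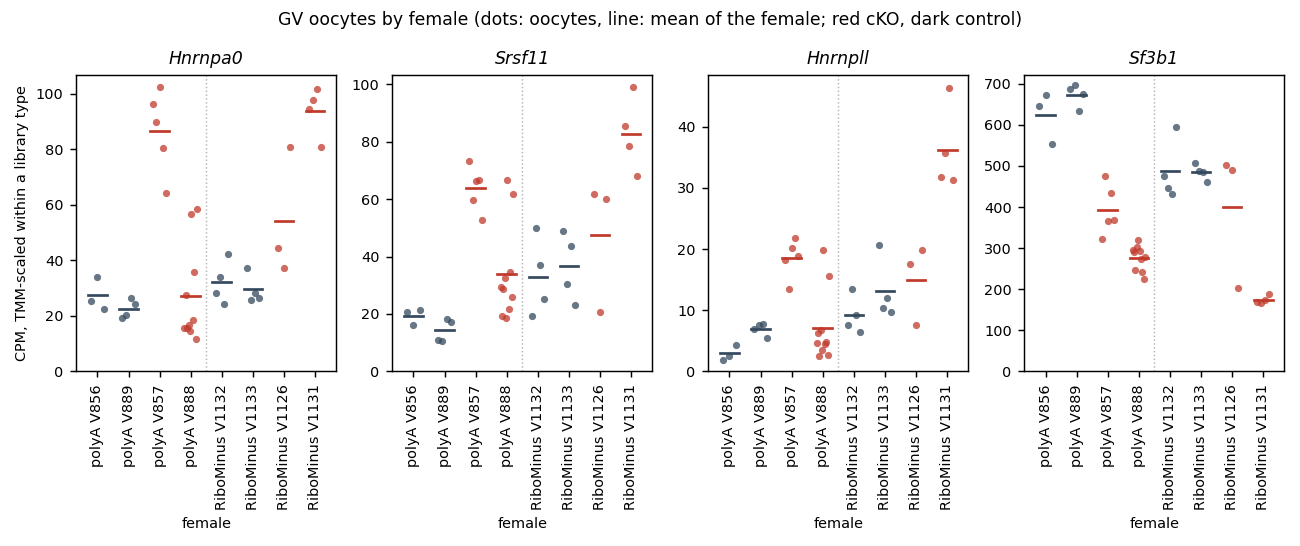
Dots are GV oocytes by female, with the mean of each female as a line, in CPM on a linear axis from 0 (red cKO, dark control; the dotted line parts polyA from RiboMinus). Hnrnpa0, Srsf11 and Hnrnpll are higher in V857 than in V888 and in V1131 than in V1126, and 2 oocytes of V1126 have Sf3b1 at control level.

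Control oocytes of GV and MII were compared within each library type. In polyA control oocytes, 25 of 34 were higher at MII than at GV and 4 lower, against 30% and 33.3% of all genes tested, with a median log2 fold change of 0.83 beside −0.08 over all genes. In RiboMinus control oocytes, 2 of 35 were higher and 13 lower, against 14.8% and 15.9%, with a median of −0.15 beside −0.04. Of the 34 tested in both, 11 were called higher in polyA and lower in RiboMinus, 1 (Hnrnpd) lower in polyA and higher in RiboMinus, and 1 (Hnrnpu) higher in both. Another 13 were higher in polyA and not called in RiboMinus. Of the 12477 genes tested in both, 9.27% were higher in polyA and lower in RiboMinus, 9.58% the reverse, 3.49% higher in both and 17.3% higher in polyA and not called in RiboMinus. The difference between library types in this change was not tested, and polyA capture depends on the poly(A) tail, whose length was not measured here. When library totals replaced TMM factors, the median over all genes in polyA controls moved to −0.45, 19 regulators were higher and 4 lower, and Ptbp1 and Hnrnpu changed sign. The shares of all genes called in that fit are not given here, and the 30% and 33.3% above belong to the TMM fit. Of the 11 called higher in polyA and lower in RiboMinus, 9 kept both calls with library totals, 6 with no filter on low counts and 2 when all groups of a library type were fitted together, and all 11 kept both signs in each.

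Sf3b1 is an example. Its polyA control level rose from 553 to 696 CPM at GV to 1348 to 1962 CPM at MII (log2 fold change 1.33 ± 0.08, edgeR adjusted p = 8.7e-11), and its RiboMinus control level fell from 432 to 595 CPM to 203 to 353 CPM (−0.81 ± 0.15, adjusted p = 0.00028). The 2 library types therefore placed MII on opposite sides of GV for the same gene, without overlap of the oocytes in either. Srsf7 (1.46 ± 0.17 and −0.96 ± 0.29), Srsf4 (1.32 ± 0.13 and −0.93 ± 0.13), Srsf11 (1.5 ± 0.21 and −0.91 ± 0.28) and Hnrnph1 (1.39 ± 0.15 and −0.60 ± 0.16) showed the same pair of signs, polyA first. Hnrnpd, the AU-rich element binding protein AUF1, was at 40.9 to 66.6 CPM in polyA GV controls and 28.9 to 41.1 CPM at MII (−0.63 ± 0.14), and at 98.5 to 148 CPM and 153 to 192 CPM in RiboMinus (0.53 ± 0.14). The other largest falls in controls were those of Srsf1 (−1.57 ± 0.50), Srsf9 (−1.21 ± 0.32) and Srsf2 (−1.08 ± 0.21) in polyA, and of Tra2a (−1.02 ± 0.39) and Hnrnpab (−1.0 ± 0.19) in RiboMinus. Srsf1 reached the filter level in 0 of 8 polyA MII controls and passed through the GV oocytes, so its fall is a description. The RiboMinus count rests on 1 MII female: 5 regulators were called without oocyte V1145_3 or without GV female V1133, and 4 when all RiboMinus groups were fitted together, beside 26.9%, 23.9% and 19.3% of all genes.

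**Figure D4:**
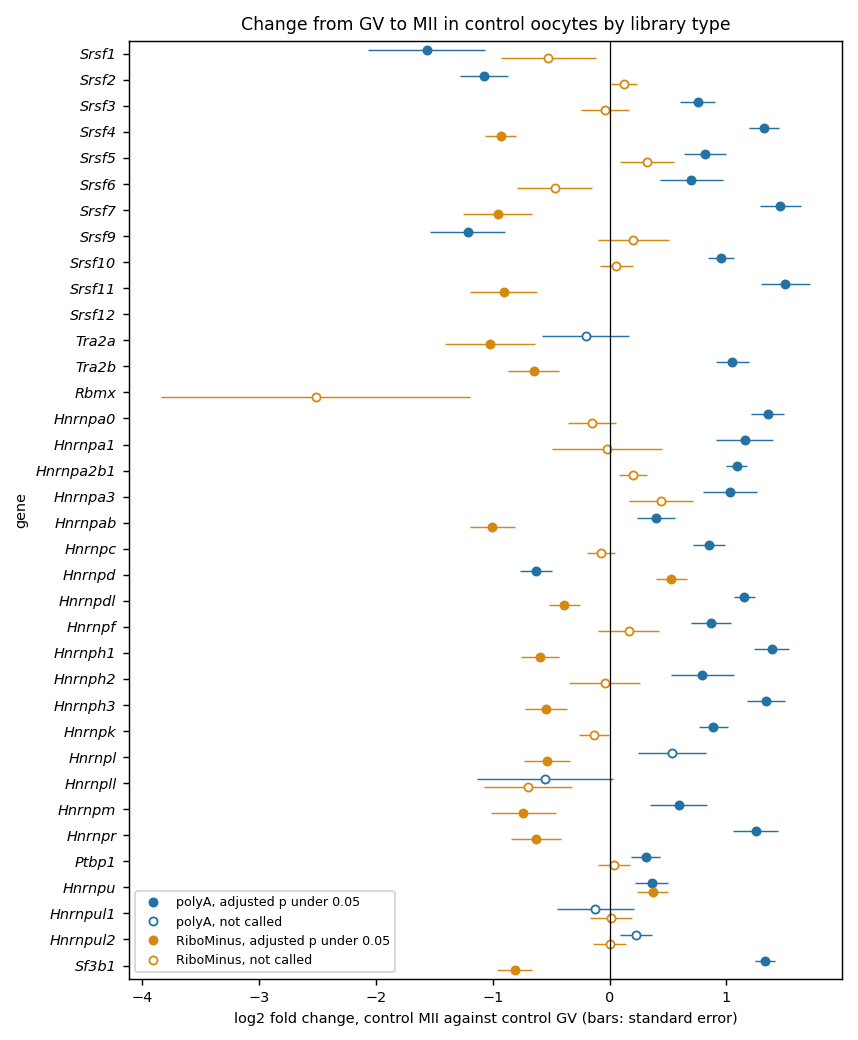
Points are log2 fold changes of control MII against control GV oocytes for each gene, with standard errors, in polyA (blue) and RiboMinus (orange) libraries; filled points have an adjusted p under 0.05. Most blue points lie right of 0 and most filled orange points left of it.

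In polyA cKO oocytes, 20 of 35 were called higher and 3 lower at MII than at GV (33.1% and 41.7% of all genes). Of the 34 tested in both genotypes, 19 were higher in both, 2 (Srsf1 and Srsf9) were lower in both, and none were called in opposite directions. Of the 12143 genes tested in both, 25.9% were higher in both, 28.8% lower in both and 1.53% called in opposite directions. Hnrnpa0 had a positive log2 change in controls (1.35 ± 0.14) and a value near 0 in cKO oocytes (−0.09 ± 0.27, not called). The largest rises in cKO oocytes were those of Srsf7 (1.62 ± 0.17), Hnrnpdl (1.52 ± 0.08), Srsf4 (1.45 ± 0.12) and Hnrnpa2b1 (1.38 ± 0.06), and the 3 falls those of Srsf9 (−1.83 ± 0.28), Hnrnpll (−1.35 ± 0.36) and Srsf1 (−1.22 ± 0.21). These 3 genes passed the filter on low counts through the GV oocytes, so their falls are a description. With library totals the cKO split was 15 higher and 9 lower, Ptbp1, Srsf5 and Hnrnpul2 changed sign, and 18 of the 23 kept their call. No shares of all genes called with library totals are given here, and the 33.1% and 41.7% above belong to the TMM fit. The median over the regulators was 0.42 with TMM factors and −0.02 with library totals, and over all genes −0.17 and −0.61. The interaction of stage and genotype called 3 regulators higher and 3 lower, against 8.79% and 5.45% of all genes. Hnrnpdl (0.37 ± 0.12) and Hnrnpa2b1 (0.30 ± 0.09) had a larger rise in cKO than in control oocytes. Hnrnpd also had a positive interaction (0.54 ± 0.19), but it fell in controls (−0.63 ± 0.14) and was at −0.10 ± 0.12 in cKO oocytes, where it was not called. For Hnrnpa0, Srsf11 (−1.25 ± 0.33) and Srsf5 (−0.52 ± 0.18) the log2 change was lower in cKO oocytes. None of the 6 passed with counts summed per female or with limma voom and the female as random effect, and 0 were higher and 3 lower with library totals. In RiboMinus cKO oocytes 3 regulators were higher at MII (Hnrnpu 1.28 ± 0.23, Ptbp1 0.87 ± 0.19 and Hnrnpd 0.79 ± 0.23) and Hnrnpl lower (−1.03 ± 0.29), against 8.08% and 8.18% of all genes, and 0 without female V1131 or without V1166, where 1.06% and 5.37% of all genes were called.

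Between GV and GV3h, edgeR called 0 of 34 in controls and 0 of 35 in cKO oocytes, with 4 and 1 at an unadjusted p under 0.05 and 0 called by DESeq2 in both. Over all genes 0.503% and 0.616% were called in either direction. These are shares at the adjusted threshold, and at the unadjusted threshold no share of all genes is given, so the 4 and 1 have no background. The cKO count rests on the females: 4 regulators (3 higher, 1 lower) and 11.1% of all genes were called without V857, and 1 (lower) and 5.97% without V888.

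Other splicing genes, listed by role, were set beside the 36. At polyA GV, 5 of 10 further hnRNP-related genes were called higher and 0 lower, 9 of 20 other splicing regulators higher and 3 lower, 12 of 34 core spliceosome genes higher and 3 lower, and 0 of 8 kinases of SR proteins higher and 1 lower, beside 23.7% of all genes higher and 17% lower. The core spliceosome genes were split 17 higher and 6 lower of 33 at GV3h, 6 and 4 of 31 at polyA MII, 3 and 5 of 34 at RiboMinus GV and 1 and 4 of 34 at RiboMinus MII. The other splicing regulators gave 10 higher and 5 lower of 20, 4 and 5 of 17, 5 and 5 of 20 and 4 and 3 of 21 in the same order, and the hnRNP-related genes 6 and 0, 5 and 1, 1 and 1 and 4 and 1. The kinases gave 1 higher and 5 lower, 0 and 3, 0 and 2 and 1 and 1. Syncrip (hnRNP Q), the closest relative of Hnrnpr, was at 2.26 ± 1.87 CPM in controls (SD, n = 7) and 21.3 ± 20.5 CPM in cKO oocytes (n = 15), and its log2 fold change was 3.24 ± 0.75. At GV3h, polyA MII and RiboMinus MII its values were 4.98 ± 0.54, 1.10 ± 0.58 and 3.03 ± 0.88. Syncrip passed the filter on low counts through the cKO oocytes in these 4 comparisons, so they are a description, and at RiboMinus GV, where the controls passed by themselves, it was called higher (3.24 ± 0.49). Srpk1, the main cytoplasmic kinase of SR proteins, was lower in all 5 comparisons, from −0.48 ± 0.14 at RiboMinus GV to −0.88 ± 0.22 at RiboMinus MII. Rbm39, an SR-like U2AF-related factor, was lower at both GV stages and in both RiboMinus comparisons (−0.65 ± 0.11 at polyA GV) and higher at polyA MII (0.22 ± 0.08, adjusted p = 0.028). The other genes named from these lists at polyA GV were Rbm3 (0.67 ± 0.20), Tia1 (2.25 ± 0.50), Rbm5 (2.17 ± 0.44), Rbfox2 (−0.53 ± 0.10), Snrpb (1.33 ± 0.49), Snrpa (0.83 ± 0.15), Cdc5l (−1.87 ± 0.50) and Snrnp70 (−0.49 ± 0.13), the 2 largest called changes each way per list where there were 2. Tia1 reached the filter level in 2 of 7 controls and passed through the cKO oocytes, so its value is a description. Cdc5l was low, at 5.49 ± 3.56 CPM in polyA GV controls (SD, n = 7). Its group mean was higher in cKO oocytes only at GV3h (0.945 CPM in controls and 1.28 CPM in cKO). The group mean of Snrpb was lower in cKO oocytes only at polyA MII (2.6 CPM in controls and 1.04 CPM in cKO). None of the genes of these 4 lists passed at polyA GV or RiboMinus GV with counts summed per female.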

How the data were processed

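The deposited gene files hold raw counts of reads per Ensembl gene ID, made by the authors with no normalization, 1 file per oocyte. Per the submitters' processing notes, the tools were cutadapt 2.5, FastQC 0.11.8, STAR 2.7.2a, SAMtools 1.9, HTSeq 0.9.1, R 3.5.1 and DESeq2 1.24.0, with genome build mm10. The annotation release, the strand setting and duplicate removal are not given in the sources used here. Lines for reads outside genes (5.85% to 14.2% of a library) were left out of totals and tests, and the 22 ribosomal RNA files were not used.

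Each comparison was fitted over all genes in edgeR 4.0.16 (R 4.3.3): filterByExpr, TMM factors, glmQLFit and glmQLFTest, two-sided, using the groups compared with no covariates, and p-values adjusted over all genes tested. Alternatives used DESeq2 1.42.0 and limma 3.58.1. Scripts were tested on simulated data. The members and lists were chosen with earlier results of these data known. Named with full values are genes called in all 5 genotype comparisons or in opposite directions, and per genotype comparison the 6 largest called rises and falls with a mean log2 CPM of at least 3 and female means that do not overlap; per stage comparison or interaction the 4 largest each way, and per further list the 2 largest each way at polyA GV. Members outside the rule, such as Srsf12, are named from the 36 as a whole. Gene lengths, isoform types and overlaps came from GENCODE M21. Oocytes of a female are not independent, so p-values over oocytes measure the spread between oocytes.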

Additional observations from a re-analysis of the deposited data

Results flagged for a closer look

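In groups of 4 to 10 oocytes, 6 values of the named genes lay far from the rest of their group by Dixon's test, out of 114 such tests, each of which flags about 1 in 20 groups by chance. In polyA MII controls, Hnrnpr was at 18.7 CPM in oocyte V836_2 and at 32.1 to 43.6 CPM in the others, Rbmx at 3.09 CPM in V853_4 (others 0 to 0.638), and Srsf4 at 114 CPM in V853_2 (others 77.1 to 90.8). In RiboMinus GV controls, oocyte V1132_4 was high in both Hnrnpul2 (647 CPM, others 354 to 471) and Sf3b1 (595 CPM, others 432 to 507). In RiboMinus MII cKO oocytes, Srsf6 was at 31.8 CPM in V1166_1 and at 53.1 to 56.4 CPM in the others.

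The change from GV to MII differed between cKO and control oocytes for 6 genes in the edgeR interaction test on polyA libraries. Of all genes tested, 8.79% were called higher and 5.45% lower in the same test. The log2 differences were 0.54 for Hnrnpd, 0.37 for Hnrnpdl, 0.30 for Hnrnpa2b1, −1.44 for Hnrnpa0, −1.25 for Srsf11 and −0.52 for Srsf5. Counts summed per female called none of the 6.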

How the results depend on the processing

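No paired analysis was possible because oocyte numbers count oocytes within a female, and the groups compared share no female. Counts of regulators called moved by more than 1.5 times in the fits given next. Counts summed per female gave 0 at polyA GV, 11 at polyA MII, 0 at RiboMinus GV, 14 for cKO polyA MII against GV, 0 for the same change in RiboMinus and 0 for the polyA interaction. For these sums, shares of all genes are given above for the genotype comparisons only. The counts for the stage changes and the interaction therefore have no background here. Limma voom with the female as random effect gave 7 at polyA GV, 8 at RiboMinus GV, 8 at RiboMinus MII, 1 for the RiboMinus cKO stage change and 0 for the polyA interaction. One fit of all groups of a library type gave 4 and 7 for the RiboMinus control and cKO stage changes. With no filter on low counts the RiboMinus control stage change gave 9 and the polyA interaction 2, and the interaction gave 3 with DESeq2 size factors and 3 with library totals. Leaving out 1 female or oocyte at a time gave ranges, some within 1.5 times of the full count: 12 to 21 at polyA GV, 20 to 25 at GV3h, 11 to 20 at polyA MII (11 without V853, 12 without V897), 1 to 18 at RiboMinus GV, 8 to 12 at RiboMinus MII (8 without V1145_4), 0 to 4 for cKO GV3h against GV (4 without V857, 1 without V888), 20 to 28 and 20 to 25 for the polyA control and cKO stage changes, 5 to 12 for the RiboMinus control one (7 without V1132, 8 without V1145_4), 0 to 9 for the RiboMinus cKO one (9 without V1126, 2 without V1166_1), 0 to 9 for the polyA interaction (0 without V889, 1 without V897, 2 without V853, 3 without V857, V856 or V836) and 0 to 3 for the library interaction (3 without V857, 1 without V888). The cause of these shifts was not tested. Without V1131, the share of all genes called was 0.631% at RiboMinus GV and 1.06% for the RiboMinus cKO stage change. Without V857 it was 11.1% for cKO GV3h against GV. Where no share of all genes is given for a refit, its count cannot be told apart from a change over all genes. Of the 65 called log2 fold changes of named genes, refitted 942 times, 0 changed sign, 810 stayed called and 132 did not, 33 of them with counts summed per female. Library totals moved the polyA GV and GV3h medians over all genes to 0.21 and 0.20, and 0 of the called regulators changed sign in a genotype comparison. Summing per female was not run for RiboMinus MII and its control stage change, which have 1 control female at MII.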
